A study of Mus musculus with 6 samples.

Results

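Spleen regulatory T cells were taken as the cells that held a Foxp3 UMI, that is, 1 counted transcript molecule of the transcription factor that defines the lineage. They were selected on 1 or more Foxp3 UMIs, 1 or more UMIs summed over Cd3e, Cd3g and Cd3d, 0 UMIs of Cd8a and Cd8b1 and 0 UMIs of Cd79a, among barcodes that held 300 genes and 500 UMIs or more and no more than 10% mitochondrial UMIs. This gave 591 cells of 17219 kept spleen barcodes, 321 in the library labelled Cysltr1 KO and 270 in the library labelled WT. The whole series holds 46641 barcodes in 6 libraries. The cells came from mice bearing tumors of EMT6, a mammary carcinoma line of BALB/c origin, either deficient in Cysltr1, a receptor for cysteinyl leukotrienes, or BALB/c WT controls, with tumors in both groups. Spleen cells were enriched magnetically for CD45, the surface protein of leukocytes, and each library is a pool of 3 mice. Age, sex and the deleted part of the gene are not given in the sources used here. With 1 library per genotype no difference has a replicate check, no significance test was run, and the 95% intervals, exact Poisson for UMIs and Clopper-Pearson for shares of cells, reflect error of counting alone.

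Regulatory T cells are CD4 T cells that restrain other immune cells. They depend on IL-2, which they bind with the high-affinity receptor chain CD25 (Il2ra), and they act through inhibitory surface proteins such as CTLA-4, through suppressive cytokines and through uptake of IL-2. In spleen they occur as resting cells that recirculate through lymphoid tissue and as effector cells that carry receptors for tissues. In tumor-bearing mice they are studied for their restraint of anti-tumor responses.

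Cysltr1 (ENSMUSG00000052821, chromosome X, 106574346 to 106603679, mm10), the targeted gene, ran against the labels in these cells. It had 37 UMIs (26.2 CPM, the summed UMIs of a class scaled to a total of 1000000) in members labelled Cysltr1 KO and 3 UMIs (3.31 CPM) in members labelled WT, a ratio of 7.92 (2.51 to 40.2). Conventional CD4 T cells showed the same order, at 29.3 CPM in the library labelled Cysltr1 KO and 4.15 CPM in the library labelled WT. Of the UMIs in members, 17 labelled Cysltr1 KO (45.9%) and 3 labelled WT (100%) lay in cells with markers of another lineage, as set out below. Cysltr1 was outside the limits for a call, and its highest other class was neutrophils, at 69.3 CPM as a mean of both libraries. The deleted part of the gene is not given, so these reads cannot check the labels. What lies behind their order was not tested. Every direction between libraries below is drawn between libraries as labelled. The spleen libraries shared 109 kept barcodes, none of them a member in both. B cells, which should lack Foxp3, had a Foxp3 UMI in 0.34% of cells (median depth 3479 UMIs) in the library labelled Cysltr1 KO and in 0.0793% (2828 UMIs) in the library labelled WT. Neutrophil RNA was more widespread and unequal, with an S100a8 UMI in 27.5% and 55.1% of these B cells. Members had a median of 3228 UMIs in the library labelled Cysltr1 KO and 2272.5 UMIs in the library labelled WT, and their UMIs summed to 1409679 and 905759 in these libraries.

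Foxp3, on chromosome X (7573644 to 7595245), chose the cells, so its level is a description. It was at 532 CPM (750 UMIs) in members labelled Cysltr1 KO and at 593 CPM (537 UMIs) in members labelled WT. A single Foxp3 UMI was the only evidence in 137 and 136 of these cells. Of all barcodes with a Foxp3 UMI, 394 in the library labelled Cysltr1 KO and 338 in the library labelled WT, 14 in each lacked a Cd3 UMI, 39 and 30 held a Cd3 and a Cd8a or Cd8b1 UMI, and a further 20 and 24 held a Cd3 and a Cd79a UMI without Cd8a or Cd8b1. Cd4 was not required, and a Cd4 UMI was seen in 47.0% of members labelled Cysltr1 KO and 35.6% of members labelled WT.

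The remaining lineage markers fitted the label in both libraries. Ctla4 (chromosome 1, 60887000 to 60915832), an inhibitory receptor that captures CD80 and CD86, was at 939 CPM in members and 174 CPM in conventional cells of the library labelled Cysltr1 KO, and at 879 CPM in members and 164 CPM in conventional cells of the library labelled WT. Conventional cells are T cells with a Cd4 UMI and no Foxp3, Cd8a, Cd8b1 or Cd79a UMI (1143 and 825 cells). Ikzf2 (chromosome 1, 69531214 to 69687245), which encodes the transcription factor Helios, was at 480 CPM in members and 43.3 CPM in conventional cells labelled Cysltr1 KO, and at 460 CPM and 44.1 CPM in the same classes labelled WT. Il2ra (chromosome 2, 11642807 to 11693193) stood 13.1-fold (10.4 to 16.7) above conventional cells in the library labelled Cysltr1 KO and 6.17-fold (4.89 to 7.82) above them in the library labelled WT. Tnfrsf18 (chromosome 4, 156026164 to 156028895), which encodes the TNF receptor family protein GITR, was the least selective of these genes, 3.35-fold and 3.06-fold above conventional cells. All 4 genes were higher in members in both libraries, and no interval of a member level overlapped that of the conventional cells.

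**Figure D1:**
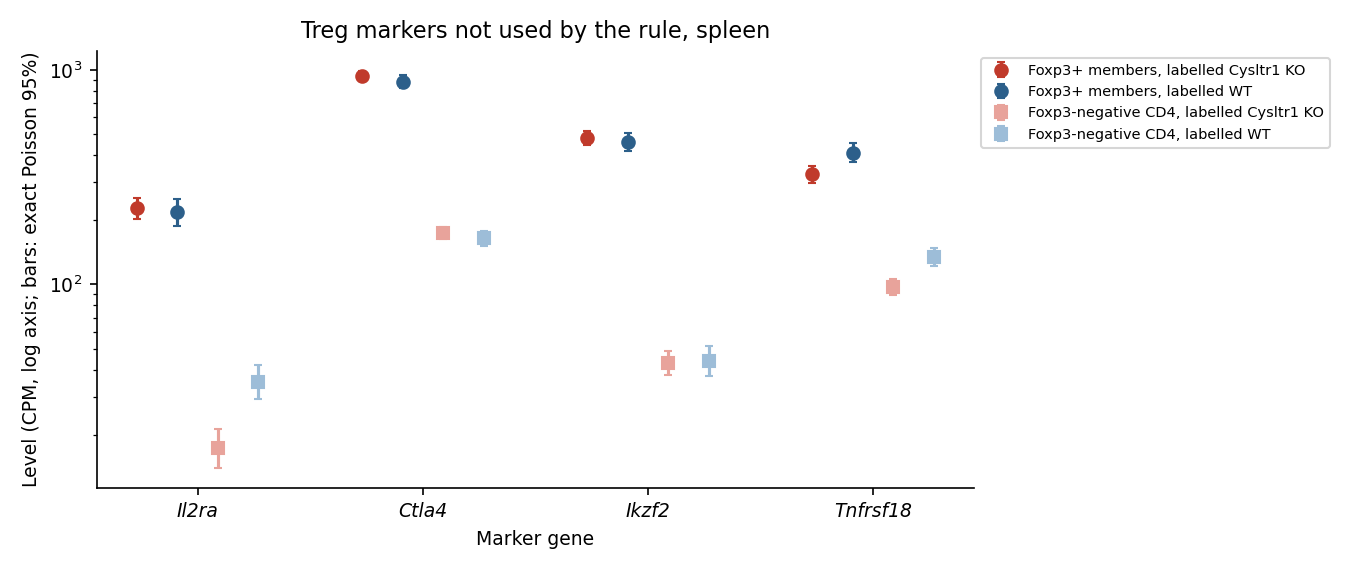
Levels of 4 regulatory T cell markers that took no part in choosing the cells, in CPM on a log axis, with exact Poisson 95% intervals. Circles are members, squares conventional CD4 T cells, and the library labelled Cysltr1 KO is left of the library labelled WT within each class; every circle lies above both squares of its gene.

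Detection in single cells showed the same contrast and the limit of shallow counts. None of the 4 markers was seen in 4.98% of members labelled Cysltr1 KO and 5.93% of members labelled WT, against 50.7% and 53.5% of conventional cells of the same libraries. All 4 were seen in 17.4% and 15.6% of members, against 1.40% and 1.45% of conventional cells. After each cell was thinned to 1000 UMIs, the share with none was 18.8% and 19.5% of members and 76.6% and 76.9% of conventional cells. Just inside the Foxp3 threshold, members with 1 UMI had 392 CPM and 385 CPM of Ikzf2 in the libraries labelled Cysltr1 KO and WT, and members with 2 or more had 530 CPM and 529 CPM. Just outside it, the 35 Foxp3+ T cells labelled Cysltr1 KO and the 27 labelled WT that were left out for a Cd8a or Cd8b1 UMI had 314 CPM and 376 CPM of Ikzf2. The 14 barcodes left out in each library for lack of a Cd3 UMI had 8.35 CPM and 43.9 CPM. Ikzf2 was thus far lower in the barcodes without Cd3 than in those with 1 Foxp3 UMI.

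Members made up 7.40% (6.64 to 8.22) of spleen T cells in the library labelled Cysltr1 KO, 321 of 4335 cells, and 6.81% (6.04 to 7.64) in the library labelled WT, 270 of 3965 cells. The ratio of 1.09 lies within the counting intervals, and its direction depended on the denominator. Among T cells of the CD4 lineage, those with a Cd4 or Foxp3 UMI and no Cd8a or Cd8b1 UMI, the shares were 21.9% (19.8 to 24.1) and 24.7% (22.1 to 27.3). Here members needed no Cd4 UMI but all other cells did, so other CD4 T cells without a counted Cd4 UMI were left out. Even in members a Cd4 UMI was seen in only 47.0% and 35.6% of cells. In cells thinned to 1000 UMIs members were 4.20% and 4.36% of T cells. T cells as defined here included barcodes with markers of another lineage past set limits, mostly the neutrophil genes S100a8 and S100a9: 11.4% of T cells in the library labelled Cysltr1 KO and 24.9% in the library labelled WT. Without those cells the shares were 7.66% (6.83 to 8.54) and 8.06% (7.11 to 9.10). Under these 4 settings the intervals of the libraries overlapped. Of all kept barcodes, members made up 3.89% (3.48 to 4.33) and 3.01% (2.67 to 3.39), intervals that did not overlap. T cells made up 52.5% and 44.2% of the kept barcodes. The part of the CD45 enrichment and of the other cells captured in these shares was not tested.

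**Figure D2:**
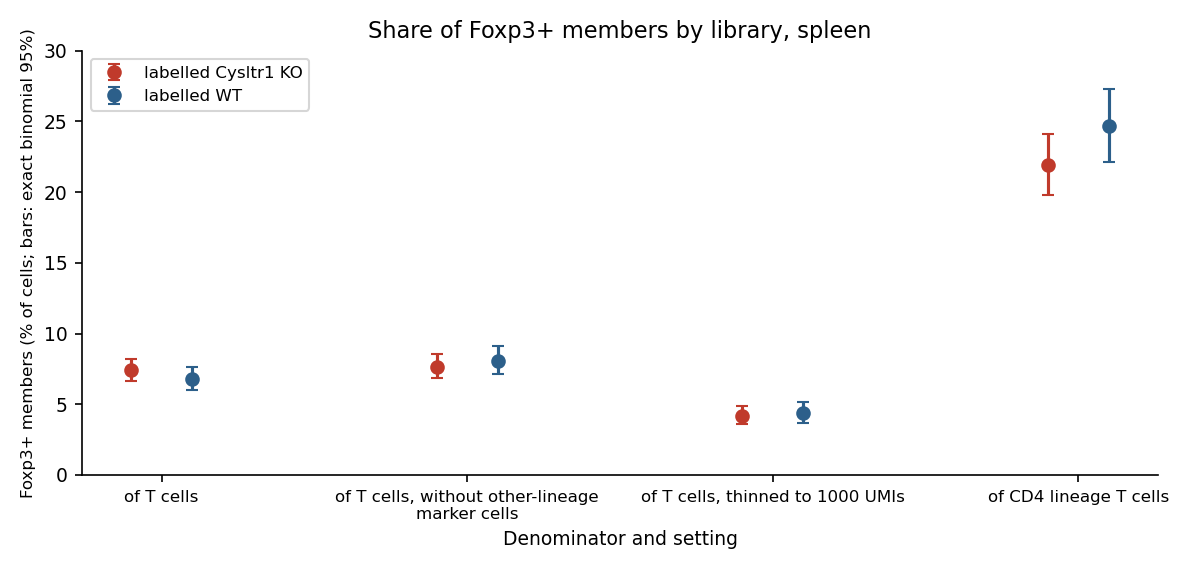
Share of Foxp3+ members in percent of T cells or of CD4 lineage T cells, with exact binomial 95% intervals, for the library labelled Cysltr1 KO (left point of each pair) and the library labelled WT (right point). The intervals of each pair overlap, and the order of the points changes with the denominator.

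Genes higher in members than in conventional CD4 T cells included Ikzf2, Tnfrsf9, Itgae and Areg, and genes lower in members included Igfbp4 and Pdlim4. Since the Foxp3 UMI chose both classes, these values describe the cells and were not tested. A gene was called where it had 50 UMIs or more in the 4 class sums, averaged 20 CPM or more, reached 20% of its level in the highest of 5 other spleen classes, and was 1.5-fold apart the same way in both libraries with intervals that did not overlap in either. By this rule 166 of 5601 genes (2.96%) were called higher in members and 57 (1.02%) were called lower. With another scaling, TMM, which moved the median log2 ratio of all genes to -0.06, against 0.05 as reported, the counts were 123 higher and 81 lower. Without the cells that held markers of another lineage they were 204 and 53, and 148 and 44 of the genes were called in both.

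Rln3 (chromosome 8, 84042929 to 84045000), the gene of the peptide hormone relaxin-3, was among the most selective genes. It was at 57.5 CPM in members and 2.36 CPM in conventional cells labelled Cysltr1 KO, and at 86.1 CPM and 3.55 CPM in these classes labelled WT. Areg (chromosome 5, 91139599 to 91148432) encodes amphiregulin, a ligand of the EGF receptor that regulatory T cells release in tissue repair. It had 141 UMIs in members labelled Cysltr1 KO and 62 UMIs in members labelled WT, and its log2 ratio over conventional cells, at 4.91 CPM and 3.26 CPM, was 4.10 and 4.03. For both genes the members of either library stood above the conventional cells of both libraries. They were concentrated in few cells: an Areg UMI was seen in 10.3% of members labelled Cysltr1 KO and 8.52% of members labelled WT, and a Rln3 UMI in 12.1% and 12.2%.

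Among receptors for tissues and effector sites, Itgae, the gene of the integrin chain CD103 that binds E-cadherin, was 22.8-fold (12.2 to 46.2) higher in members labelled Cysltr1 KO and 9.32-fold (5.10 to 17.8) higher in members labelled WT than in the conventional cells of their library. Ccr8, a chemokine receptor of effector regulatory T cells, was 9.15-fold and 8.58-fold higher. Klrg1, an inhibitory lectin-like receptor of effector lymphocytes, was 6.94-fold (4.24 to 11.6) higher in the library labelled Cysltr1 KO and 40.4-fold (17.6 to 114) higher in the library labelled WT. These ratios rest on 27 and 6 Klrg1 UMIs in conventional cells. NK cells held more Klrg1 than members, at 200 CPM as a mean of both libraries. Gpr83, a G protein-coupled receptor, was at 54.6 CPM and 61.8 CPM in members labelled Cysltr1 KO and WT, and at 4.73 CPM and 7.40 CPM in conventional cells. Ly6a (chromosome 15, 74994877 to 74998031), the gene of the surface protein Sca-1, was 20.5-fold and 9.88-fold higher than in conventional cells.

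Across the effector regulatory T cell list 18 of 30 measured genes were at least 1.5-fold higher in members of both libraries and 0 lower, with a median log2 ratio of 0.94. Over all 11185 genes with at least 20 UMIs, 5.04% were 1.5-fold higher in both libraries, 3.47% lower, and the median was 0.05. The list of resting and lymphoid-homing genes had 0 of 20 higher and 7 lower, with a median of -0.35. Without cells that held markers of another lineage 8 of its genes were lower and the median was -0.13, and in cells thinned to 1000 UMIs before they were chosen the median was -0.01. All lists were chosen with earlier results of these data and textbook knowledge of these cells in hand, so their direction is no independent evidence.

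The TNF receptor family and costimulation list had 12 of 23 measured genes at least 1.5-fold higher in members of both libraries and 1 lower, with a median log2 ratio of 0.82. Tnfrsf9, the gene of 4-1BB, was at 135 CPM and 173 CPM in members labelled Cysltr1 KO and WT, and at 19.3 CPM and 23.7 CPM in conventional cells. NK cells were near the members, at 164 CPM of Tnfrsf9 as a mean of both libraries. Tnfrsf4, the gene of OX40, was at 354 CPM and 403 CPM in members, and at 60.2 CPM and 91.5 CPM in conventional cells. Izumo1r, the gene of folate receptor 4, was on the list too, at 653 CPM and 709 CPM in members against 182 CPM and 232 CPM. The 1 lower gene, Cd40lg, encodes the ligand with which helper T cells activate B cells, and was at 46.1 CPM and 43.1 CPM in members against 205 CPM and 175 CPM in conventional cells.

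Of the transcription factors tied to regulatory T cell identity, 9 of 29 were higher in both libraries and 2 lower. Besides Ikzf2 the largest ratio belonged to Ikzf4, which encodes Eos, a partner of Foxp3 in repression, at 41.1 CPM and 37.5 CPM in members labelled Cysltr1 KO and WT and 5.09 CPM and 7.70 CPM in conventional cells. Prdm1, the gene of Blimp-1, was low but higher in members, at 26.2 CPM and 25.4 CPM against 8.91 CPM and 4.74 CPM. Tox and Id3 were 1.05 and 1.37 higher on the log2 scale in the library labelled Cysltr1 KO, and 1.27 and 1.24 higher in the library labelled WT. Satb1, a chromatin organizer, and Id2, an inhibitor of E proteins, were the 2 lower genes, with log2 ratios of -1.02 and -0.74 in the library labelled Cysltr1 KO and -1.05 and -0.75 in the library labelled WT.

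Genes of suppression went the same way: 10 of 19 measured genes were higher in both libraries and 1, Havcr2, was lower. Of the list 6 genes were called higher and 0 lower. With doublets removed 12 of 19 were higher and 0 lower, and without cells that held other-lineage markers 12 of 18 and 0. In cells thinned to 1000 UMIs before they were chosen 5 of 10 were higher and 1 lower. Lrrc32 encodes GARP, which holds latent TGF-beta on the cell surface, and Itgb8 the integrin chain that releases it. Lrrc32 was at 29.1 CPM in members and 2.54 CPM in conventional cells labelled Cysltr1 KO, and at 15.5 CPM and 0.888 CPM in the classes labelled WT. Itgb8 had 24 UMIs and 13 UMIs in members labelled Cysltr1 KO and WT, and was 2.50 and 1.85 higher on the log2 scale than in conventional cells. Nrp1, a semaphorin coreceptor carried by regulatory T cells of thymic origin, was 2.24 and 2.35 higher on the log2 scale, and Tigit, an inhibitory receptor for nectin-like proteins, 1.73 and 1.70 higher. Il10, the suppressive cytokine, was scarce, at 8.51 CPM and 4.42 CPM in members and 3.45 CPM and 2.67 CPM in conventional cells. Il12a, a chain of IL-35, was at 0 CPM in members labelled Cysltr1 KO and 1.10 CPM in members labelled WT, whereas Ebi3, its partner chain, was at 33.3 CPM and 57.4 CPM.

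In the IL-2 pathway 5 of 18 genes were higher and 1 lower. Il2rb, the shared receptor chain, was at 266 CPM and 286 CPM in members labelled Cysltr1 KO and WT, against 109 CPM and 85.6 CPM in conventional cells. The feedback genes Cish and Socs2, known targets of the IL-2 signal through STAT5, were 1.82 and 1.93 higher on the log2 scale in the library labelled Cysltr1 KO, and 1.83 and 1.11 higher in the library labelled WT. Il7r, the receptor chain for IL-7, was the lower gene, at 199 CPM and 243 CPM in members and 396 CPM and 431 CPM in conventional cells. The receptors for IL-2 and IL-7 thus ran opposite ways between the classes.

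Feedback genes of T cell receptor and NF-kappaB signaling were higher in 6 of 24 cases and lower in 0, with Dusp4, a phosphatase of MAP kinases, at 83.7 CPM and 56.3 CPM in members labelled Cysltr1 KO and WT against 7.63 CPM and 13.0 CPM. Genes that respond to interferon-gamma were higher in 8 of 25 cases and lower in 0, with a median log2 ratio of 0.56. Gbp3 and Gbp5, guanylate-binding proteins of cell-autonomous defense, were 1.89 and 1.51 higher on the log2 scale in the library labelled Cysltr1 KO, and 1.81 and 1.96 higher in the library labelled WT. Type I interferon genes stood near the background, with 1 of 35 higher (Ly6e), 0 lower and a median of 0.13.

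The conventional T cell list had 12 of 30 genes lower in both libraries and 3 higher, with a median log2 ratio of -0.53. Igfbp4 (chromosome 11, 99041244 to 99054392), a binding protein of insulin-like growth factors found in naive T cells, was at 108 CPM and 46.4 CPM in members labelled Cysltr1 KO and WT, against 612 CPM and 674 CPM in conventional cells. Pdlim4, a PDZ and LIM domain protein, was at 9.22 CPM and 6.62 CPM against 69.3 CPM and 74.3 CPM. The next lowest genes were Dapl1, Pde3b (a phosphodiesterase of cyclic nucleotides), Nsg2, Tgfbr3 (a TGF-beta coreceptor) and Tdrp, with mean log2 ratios over both libraries from -2.97 to -2.18. Dapl1, Nsg2 and Tgfbr3 had 5, 1 and 3 UMIs in members labelled WT, near the floor. Their log2 ratios were -4.20, -3.60 and -3.38 in that library and -1.75, -1.47 and -1.58 in the library labelled Cysltr1 KO. Themis, an adaptor of T cell receptor signaling, was at 38.3 CPM and 21.0 CPM in members, and at 130 CPM and 118 CPM in conventional cells. Ifng, the gene of interferon-gamma, was at 27.0 CPM and 18.8 CPM in members and at 127 CPM and 51.8 CPM in conventional cells, a mean log2 ratio of -1.80. That ratio was -1.23 with doublets removed, -1.13 as a mean over cells, -1.02 in chosen cells thinned to 1000 UMIs and -0.04 in cells thinned before they were chosen. The helper cytokine gene Il21 had 0 UMIs in members of both libraries, and Il4 was at 0 CPM and 1.10 CPM. Tcf7 and Lef1, transcription factors of resting T cells, had log2 ratios of -1.28 and -1.14 in the library labelled Cysltr1 KO and -1.50 and -1.46 in the library labelled WT.

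**Figure D3:**
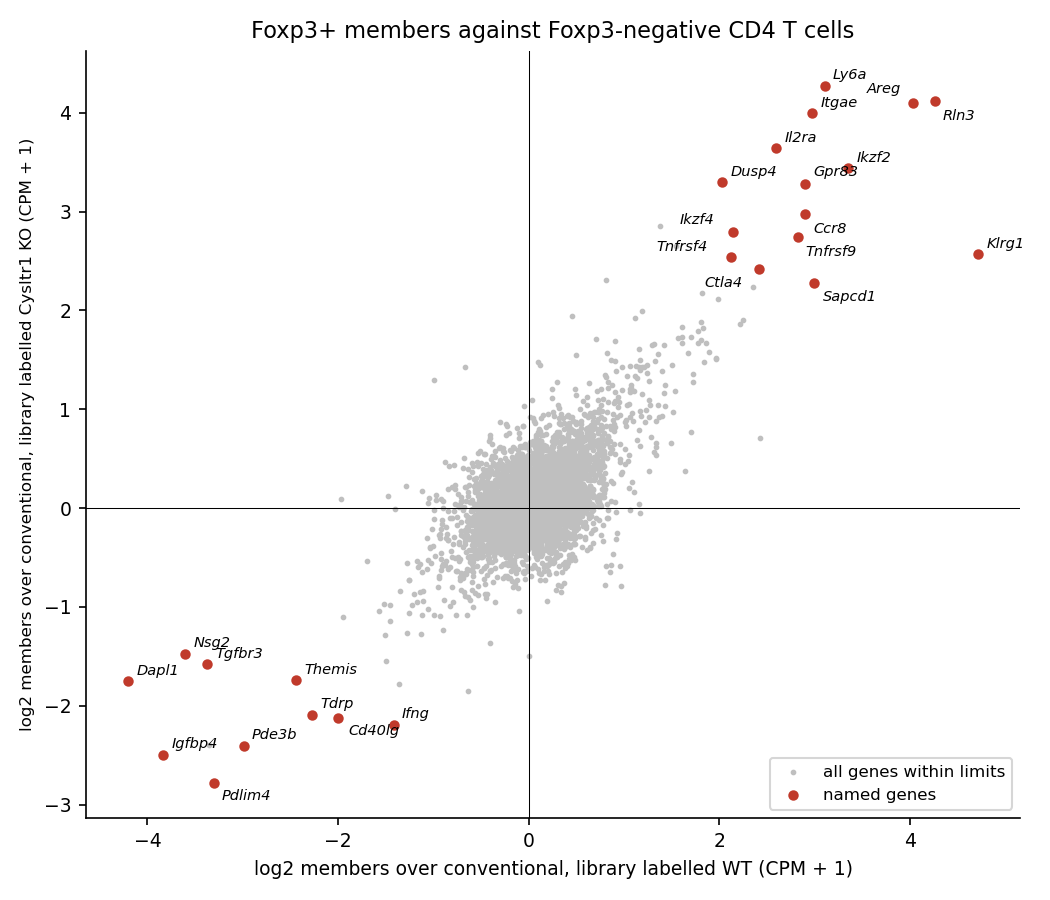
Log2 ratio of members over conventional CD4 T cells for each gene within the limits, with the library labelled Cysltr1 KO on the vertical and the library labelled WT on the horizontal axis (pseudocount 1 CPM). Red points are the named genes, which lie in the upper right or lower left; Klrg1 and Dapl1 stand farthest from equal ratios.

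Between the libraries the marker genes of the members were close. The ratio of the library labelled Cysltr1 KO to the library labelled WT was 1.04 (0.871 to 1.25) for Il2ra, 1.07 (0.978 to 1.17) for Ctla4, 1.04 (0.921 to 1.18) for Ikzf2 and 0.791 (0.688 to 0.909) for Tnfrsf18. Tnfrsf18 was lower in conventional cells too, with a ratio of 0.722 (0.636 to 0.820). Il2ra by contrast had a ratio of 0.490 (0.370 to 0.647) in conventional cells.

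Over all genes 100 of 4506 (2.22%) were called higher in members labelled Cysltr1 KO and 75 (1.66%) lower. A call needed at least 1.5-fold, intervals that did not overlap, at least 50 UMIs and a mean of at least 30 CPM. The free RNA guard applied too: members of either library had to reach 20% of the level in the highest of 5 other classes. A gene could pass it through 1 library alone. Lcn2, at 452 CPM and 2247 CPM against 5508 CPM in neutrophils, passed through the library labelled WT. Csf1, at 45.4 CPM and 18.8 CPM against 221 CPM in neutrophils, passed through the library labelled Cysltr1 KO. The members of this comparison carried RNA of other cells in unequal amount. The neutrophil list summed to 17900 CPM in members labelled Cysltr1 KO and 41700 CPM in members labelled WT, and to 8530 CPM and 29600 CPM in conventional cells. In members chosen after each cell was thinned to 1000 UMIs it summed to 3590 CPM and 3350 CPM, with 2 of 8 measured genes higher and 3 lower. Of its 17 genes, all measured and none at 0, 0 were 1.5-fold higher and 15 lower in members labelled Cysltr1 KO. The B cell list summed to 2370 CPM and 4740 CPM in members, the monocyte and macrophage list to 810 CPM and 1340 CPM, the NK cell list to 606 CPM and 893 CPM, the CD8 T cell list to 572 CPM and 181 CPM, the dendritic cell list to 782 CPM and 572 CPM, the plasma cell list to 117 CPM and 206 CPM, and the erythroid and platelet list to 5.68 CPM and 15.5 CPM. No UMI was seen in members of either library for 1 of 17 B cell genes, 1 of 12 NK cell genes, 3 of 12 CD8 T cell genes, 1 of 13 dendritic cell genes, 2 of 7 plasma cell genes and 7 of 10 erythroid and platelet genes. The B cell sum is without Cd79a, which the rule kept at 0. The part of this RNA in the differences below was not tested, except where values without the cells that held it are given. Neutrophil RNA sat in few cells: 27 members labelled Cysltr1 KO (8.41%) and 30 labelled WT (11.1%) held markers of another lineage past set limits, and without them the neutrophil list summed to 333 CPM and 992 CPM. The CD8 T cell list still summed to 478 CPM and 197 CPM. Without these cells 71 genes were called higher and 48 lower, of which 48 and 21 were among the first calls. In all members thinned to 1000 UMIs, 18 were called higher and 15 lower.

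Genes of neutrophil granules filled much of the lower end, and nearly all their UMIs came from the cells with markers of another lineage. Olfm4 had 1 UMI, in 1 cell, in members labelled Cysltr1 KO and 167 UMIs, in 6 cells, in members labelled WT, and all of these cells held such markers. Lcn2, the gene of lipocalin 2, had 637 UMIs and 2035 UMIs, 98.9% of them in such cells in either library. Ltf (lactoferrin), Ly6g and Mmp9 (a matrix metalloproteinase) had 87.5% or more of their UMIs in such cells in both libraries. Without these cells Olfm4 had 0 UMIs in both libraries, Ly6g 3 and 1, Mmp9 4 and 2, Ltf 3 and 13, and Lcn2 7 and 23, and none of the 5 genes was called. The log2 ratio of Ly6g was 0.48 and that of Mmp9 0.10 in the remaining cells, against -2.95 and -2.14 in all members.

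Genes of the cell cycle changed side with these cells. In all members 0 of 24 were 1.5-fold higher and 10 lower in the library labelled Cysltr1 KO, with a median log2 ratio of -0.39, and without cells that held other-lineage markers 9 were higher and 1 lower, with a median of 0.27. Over all 8443 genes measured in members, 8.47% were higher by 1.5-fold and 8.58% lower, and the median was 0.04. Ccna2, the gene of cyclin A2, had 20 UMIs in members labelled Cysltr1 KO and 54 in members labelled WT, of which 0 and 40 lay in such cells, and its levels were 14.2 CPM and 59.6 CPM in all members and 17.3 CPM and 22.2 CPM in the rest. Hist1h1b, a linker histone, was lower with and without them, with log2 ratios of -2.30 and -1.55, rested on 8 and 14 cells with a UMI, and had a ratio of -0.50 in members thinned to 1000 UMIs. No direction of cycling between the libraries can be read from these values.

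Ly6a had the largest called ratio and kept it. It was at 338 CPM (309 to 370, 477 UMIs) in members labelled Cysltr1 KO and 58.5 CPM (43.8 to 76.5, 53 UMIs) in members labelled WT, a ratio of 5.78 (4.35 to 7.83). A single cell held 138 of the 477 UMIs, and without the top cell of each library the levels were 244 CPM and 49.6 CPM. A Ly6a UMI was seen in 17.1% of members labelled Cysltr1 KO and 8.52% of members labelled WT, and in 9.69% and 4.87% of members at 1000 UMIs. Conventional cells were at 16.5 CPM and 5.92 CPM, a ratio of 2.79 (1.71 to 4.79), and the highest other class, B cells, at 109 CPM as a mean of both libraries.

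The other genes at the upper end were Sfi1, Gbp10, Serpina3g, H2-Q6, Btbd9, Glo1 and Csf1. Sfi1, a centrin-binding protein, was at 189 CPM and 47.5 CPM in members labelled Cysltr1 KO and WT, and at 189 CPM and 52.7 CPM in conventional cells. Glo1, the glyoxalase that clears methylglyoxal, was at 218 CPM and 91.6 CPM in members and 184 CPM and 91.8 CPM in conventional cells. Btbd9 was 2.43-fold (1.45 to 4.28) higher in members and 2.55-fold (1.98 to 3.32) higher in conventional cells. These 3 genes had similar ratios in both classes. So did Csf1 (2.42 in members and 2.26 in conventional cells), H2-Q6 (2.43 and 2.18) and H2-Q7, which was lower in both (0.204 and 0.243). Gbp10 (3.30 and 1.99) and Serpina3g (2.87 and 2.27) were also higher in both classes, and the difference between their ratios was not tested. H2-Q6 and H2-Q7, class I histocompatibility genes of chromosome 17 (35424850 to 35430055 and 35439155 to 35443773), went opposite ways: H2-Q6 was at 617 CPM and 254 CPM in members, and H2-Q7 at 57.5 CPM and 282 CPM. The genes are near-identical copies whose reads the counting could split, so neither level is certain. Csf1, the gene of the macrophage growth factor, was at 45.4 CPM and 18.8 CPM and was no longer called without the other-lineage cells.

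Genes that respond to interferon-gamma were higher in members labelled Cysltr1 KO in 8 of 25 cases and lower in 0, with a median log2 ratio of 0.40, against 715 higher and 724 lower of all 8443 genes. Conventional cells of the same libraries had 5 of 25 higher and 0 lower, with a median of 0.26, against 515 higher and 731 lower of 10773 genes and a median of 0.02. Irf1, a transcription factor of the interferon response, was at 473 CPM and 262 CPM in members labelled Cysltr1 KO and WT, and at 268 CPM and 197 CPM in conventional cells. Gbp10, a guanylate-binding protein outside the list, was at 51.1 CPM and 15.5 CPM in members. Without other-lineage cells 5 of 25 genes were higher and 1 lower, with a median of 0.32. Of the type I interferon genes, 9 of 28 were higher and 1 lower, with a median of 0.29, led by Ifi27l2a at 1777 CPM and 986 CPM. Conventional cells had 4 of 35 higher and 1 lower, with a median of 0.37, and in members thinned to 1000 UMIs 2 of 19 were higher and 1 lower. 

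The effector list showed no single direction between the libraries, with 6 of 28 genes higher and 5 lower in members labelled Cysltr1 KO and a median log2 ratio of 0.14. Without cells that held other-lineage markers 9 of 28 were higher and 5 lower, with a median of 0.28. Ccr2, a receptor for inflammatory chemokines, was at 108 CPM and 47.5 CPM in members labelled Cysltr1 KO and WT, and at 38.0 CPM and 24.9 CPM in conventional cells. Klrg1 went the other way, at 34.05 CPM (48 UMIs) and 71.8 CPM (65 UMIs) in members, a ratio of 0.474 (0.320 to 0.700), and at 4.91 CPM (27 UMIs) and 1.78 CPM (6 UMIs) in conventional cells, a ratio of 2.76 (1.12 to 8.18). The difference between these ratios was not tested, and in members thinned to 1000 UMIs the log2 ratio of Klrg1 was -0.39, against -1.05. Klrg1 UMIs lay in 16 members of each library, 4.98% of those labelled Cysltr1 KO and 5.93% of those labelled WT. The top cell held 11 and 10 of them, and without it the levels were 26.3 CPM and 61.0 CPM. Igfbp4, of the resting list, was 2.33-fold (1.64 to 3.36) higher in members labelled Cysltr1 KO, with a ratio of 0.909 (0.862 to 0.959) in conventional cells. In the suppression list 6 of 18 genes were higher and 2 lower, among the lower ones Ebi3, and among the higher ones Cd274, the gene of PD-L1, at 94.3 CPM and 53.0 CPM. The TNF receptor list had 1 of 23 higher and 1 lower, with a median of 0.04, and the transcription factor list 3 of 29 higher and 0 lower, with a median of 0.13.

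**Figure D4:**
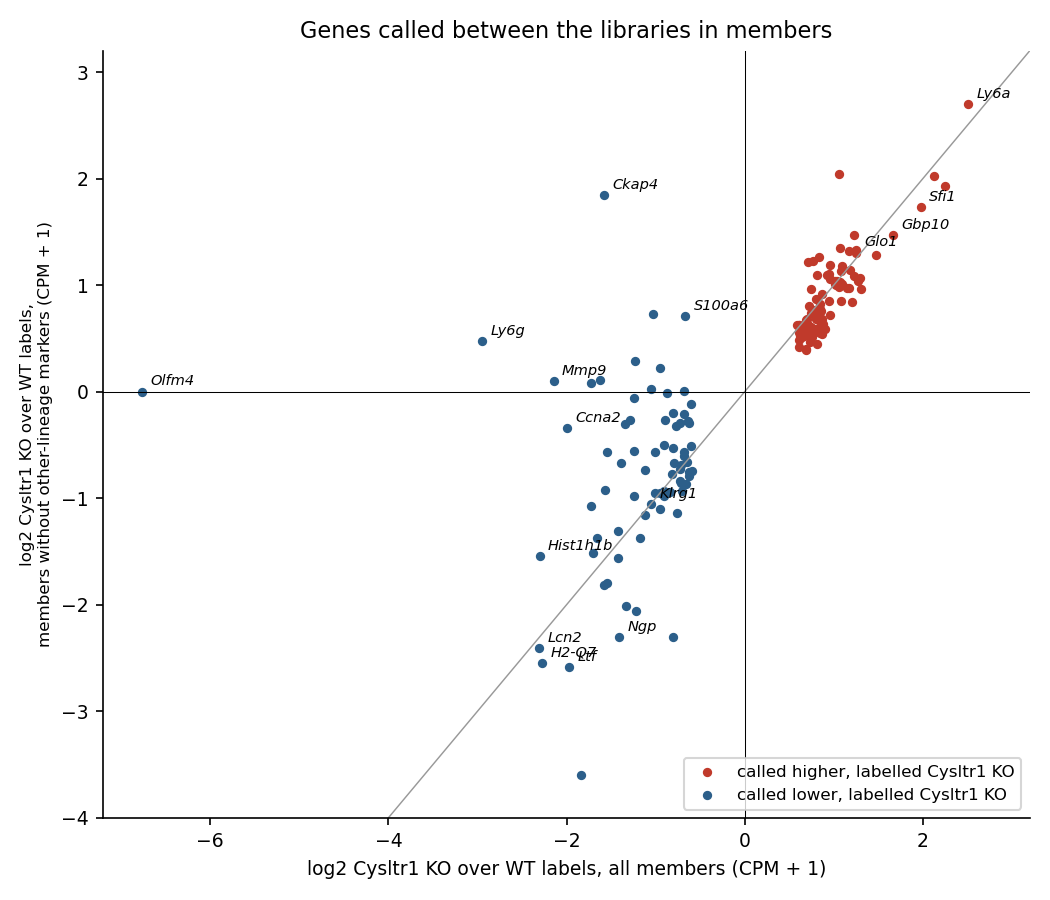
Log2 ratio of the library labelled Cysltr1 KO over the library labelled WT for the 175 genes called in members, in all members (horizontal) and in members without markers of another lineage (vertical), with equal values on the grey line. Genes called higher (red) lie along the line; some called lower (blue), such as Olfm4, Ly6g and Mmp9, move to 0 or above.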

How the data were processed

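The authors deposited UMI counts per gene and barcode as 10x matrices. They used Cell Ranger, version 6.0.0 with mm10 per the submitters' processing notes and version 6.1.0 per the file headers, and the labels' protocols mention 5' as well as 3' v3 chemistry. Gene positions came from GENCODE vM21 of the same build by gene ID. Each spleen library listed 32285 genes, with 40377940 UMIs over 8407 barcodes in the library labelled Cysltr1 KO and 41799544 over 9130 in the library labelled WT. The rule above kept 8257 and 8962 barcodes, and counts were summed per library and class, scaled to CPM and compared as log2 ratios with a pseudocount of 1 CPM. The members and gene lists were chosen with earlier results of these data known.

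Named genes were up to 15 highest and 10 lowest mean ratios over both libraries among genes called against conventional cells and at least 2-fold apart, up to 8 highest and 8 lowest called ratios between libraries, and up to 4 genes of each list, called ones first. Izumo1r, Satb1, Id2, Havcr2, Itgb8, Ebi3 and Il7r fall outside this rule and were chosen after their values were seen. Genes of ribosomes, mitochondria, haemoglobin, immunoglobulins and receptor segments, Xist, Y-linked genes and provisional names were passed over. Where a list gene had fewer than 20 UMIs it was not counted. Doublets stayed in and were removed in an alternative (Scrublet in scanpy 1.11.5, highest scores at 0.8% per 1000 barcodes). Markers of another lineage meant at least 20 UMIs of S100a8 and S100a9, 10 of Lyz2, of Cst3 or of H2-Ab1, H2-Aa, H2-Eb1 and Cd74, 20 of Hbb-bs and Hba-a1, or 2 of Ncr1, limits chosen after the data were seen. The scripts that apply the calling rule were checked on simulated counts with known changes. TMM factors came from edgeR 4.0.16. Alternatives changed thinning, doublets, the Foxp3, Cd3, Cd4 and mitochondrial limits, pseudocount, filters, scaling, the mean over cells and the free RNA guard. Results on withheld items are not reported here.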

Additional observations from a re-analysis of the deposited data

Results flagged for a closer look

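Signal of the same kind was seen outside the spleen, in libraries that no comparison above uses. The rule found 20 cells in the tumor library labelled Cysltr1 KO and 12 cells in the tumor library labelled WT, which is 6.19% (3.82 to 9.40) of 323 T cells and 7.10% (3.72 to 12.1) of 169 T cells. Ikzf2 was seen in 17 and 8 of these cells, Ctla4 in 16 and 9, Tnfrsf18 in 16 and 10, and Il2ra in 13 and 8.

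Foxp3 UMIs also occurred in barcodes with no Cd3 UMI. There were 18 such barcodes in the bone marrow library labelled Cysltr1 KO and 59 in the bone marrow library labelled WT, and 19 and 15 in the tumor libraries with these labels. Cells that met the whole rule numbered 1 and 2 in the bone marrow libraries. What these barcodes are was not tested.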

How the results depend on the processing

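With cells thinned to 1000 UMIs before they were chosen, members were 4.20% of T cells in the library labelled Cysltr1 KO and 4.36% in the library labelled WT, 41 genes were called higher and 15 lower than in conventional cells, and 9 were higher and 6 lower in members labelled Cysltr1 KO than in those labelled WT. With chosen cells thinned the counts were 99, 31, 18 and 15. With 2 or more Foxp3 UMIs the shares were 4.24% and 3.38%, with a Cd4 UMI required they were 3.48% and 2.42% (ratio 1.44), and of CD4 lineage T cells they were 21.9% and 24.7%. The genes lower in members labelled Cysltr1 KO numbered 135 with no minimum of UMIs or CPM, 138 without the free RNA guard and 48 without cells that held other-lineage markers, where the share labelled WT was 8.06%. Without other-lineage cells 11 of the 75 genes called lower and 0 of the 100 called higher had the opposite sign. Among them the log2 ratio of Ly6g was 0.48 (0.33 in cells thinned first), that of Mmp9 0.10, and, chosen after their values were seen, that of S100a6 0.71 against -0.67 in all members, of Lgals3 0.73 against -1.03 and of Ckap4, on 3 UMIs and 0, 1.85 against -1.58. The median of the neutrophil list was -1.18 in all members and 0.17 in cells thinned first. Thinning leaves fewer UMIs to call genes; the cause of the other shifts was not tested. The remaining settings, among them doublet removal, pseudocounts of 0.5 and 5 CPM and TMM, kept each count within 1.5 times. No paired analysis was possible because each genotype is 1 library and no significance test was run.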

Other observations

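Further gene groups were compared with conventional cells. Over all 11185 genes with at least 20 UMIs, 5.04% were 1.5-fold higher in members of both libraries and 3.47% lower. Among chemokine and homing receptors 7 of 26 genes were 1.5-fold higher in members of both libraries and 2 lower, in TGF-beta and IL-10 signaling 4 of 17 were higher and 1 lower, in immediate early genes 3 of 26 higher and 0 lower, in glycolysis 2 of 23 higher and 1 lower, and in helper subset genes 2 of 18 higher and 5 lower. Itgav, an integrin chain that takes part in TGF-beta release, was 1.79 higher on the log2 scale in the library labelled Cysltr1 KO and 1.78 in the library labelled WT. In the heat shock list 0 of 14 were higher and 1 lower, and in the leukotriene list 1 of 8 higher and 2 lower.

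Between libraries, the heat shock genes Hspa1a and Hspa1b, near-identical copies whose counts are uncertain, had 1 and 3 UMIs in members labelled Cysltr1 KO and 18 and 21 UMIs in members labelled WT, and 15 and 8 UMIs against 137 and 150 UMIs in conventional cells. Alox5ap, the partner protein of 5-lipoxygenase, was at 154 CPM and 476 CPM in members, and at 115 CPM and 369 CPM in conventional cells. It was not called between libraries in members by a rule that includes the free RNA guard. The missing call does not mean a small difference. The neutrophil list differed in the same direction, at 17900 CPM and 41700 CPM in members and 8530 CPM and 29600 CPM in conventional cells. The part of neutrophil RNA in the Alox5ap difference was not tested. Ccl5, a chemokine of effector T cells, had 438 UMIs in 31 members labelled Cysltr1 KO, 105 of them in 1 cell and 40.0% in cells with other-lineage markers, and 37 UMIs in 15 members labelled WT.

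A set of 17 genes was called the same way between libraries in members and in conventional cells, with and without the cells that held other-lineage markers, and 7 of them (41.2%) lie on chromosome 17, against 238 of 4506 genes within the limits (5.28%) and 9 of all 175 genes called in members (5.14%). They were singled out after their values were seen. The 7 genes are not independent: Btbd9 (30215524 to 30576488) lies close to Glo1 (30584936 to 30626871), and H2-Q6 close to its near-identical copy H2-Q7. The share on chromosome 17 was not tested. Of the named genes Btbd9, Glo1, Dnah8 and H2-Q6 were higher and H2-Q7 and Tmem181a lower in members labelled Cysltr1 KO. Tmem181a was at 35.5 CPM and 67.3 CPM, and Dnah8 at 121 CPM and 58.5 CPM.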
